A study of Mus musculus with 10 samples.

Results

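Titin, nebulin, the myomesins, Nrap and the Xin-repeat proteins are the long scaffolds of muscle, and 7 of the 8 genes listed for this group (Ttn, Neb, Nebl, Myom1, Myom3, Nrap and Xirp1, out of 11228 genes in the table) were followed in mouse myotubes after knock-down of Charme, a muscle long non-coding RNA. They were picked by name as giant, M-band and Xin-repeat scaffolds, with earlier results of these data known. Xirp2, the remaining gene, is not analysed here. The libraries comprised 2 from myotubes treated with the gapmer set GAP-2, 2 with the set GAP-2/3 and 2 with the scrambled control GAP-scr, each at day 2 of differentiation in culture, and polyadenylated RNA was sequenced. A gapmer is a modified antisense strand whose target RNA is cut by RNase H. The control cells thus also received a gapmer, and the parent cell line is not given in the labels. A separate assay, ChIRP-seq, recovered DNA bound to Charme with an even and an odd probe set, alongside input DNA and a LacZ probe control, at 1 library each.

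A sarcomere is built between Z-discs, where thin actin filaments are anchored, and the M-band, where thick myosin filaments are joined. Titin runs from the Z-disc to the M-band as a molecular spring, and nebulin lies along the thin filament of skeletal muscle. Nebulette, the product of Nebl, is a shorter relative known from the Z-disc of heart muscle, and the same gene also encodes LIM-nebulette, a form found in cells other than muscle. Myomesins crosslink myosin at the M-band. Nrap, another nebulin relative, takes part in the assembly of myofibrils, and Xirp1 (Xin) binds and bundles actin at muscle attachment sites.

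Levels are in FPKM, fragments scaled for transcript length and for library size, and the depth behind each value is unknown. Median FPKM over all genes lay between 11.9 and 13.3 in the 6 libraries. Rn45s, the ribosomal RNA precursor, stood at 4090 FPKM in GAP-2 replicate A and 3387 in GAP-scr replicate A, against 93.2 to 176 in the other 4. Charme itself is not analysed here, so the extent of its knock-down was not measured. The summed level of 7 myotube markers, all with a row in the table, was 5145 and 5173 FPKM with GAP-2, 5399 and 5873 with GAP-2/3, and 9251 and 9822 with GAP-scr. Acta1 made up most of it, at 5636 and 6323 FPKM with GAP-scr. Acta1, Ckm, Myh3, Chrng and Tmem8c were lower in every gapmer library than in both GAP-scr libraries. Myog was at 588 and 669 FPKM with GAP-2, 811 and 882 with GAP-2/3, and 982 and 846 with GAP-scr. Myh8 was at 3.50 and 4.90, 2.18 and 1.65, and 4.56 and 3.57 FPKM in the same order. Of 4 markers of undifferentiated myoblasts 3 had a row, without Pax7, and their sum ran from 116 to 128 FPKM in the gapmer libraries and from 120 to 123 in GAP-scr. These 3 did not move alike: Cdh15 was at 74.8 to 89.7 FPKM in the gapmer libraries and 101 and 103 in GAP-scr, Myf5 at 23.5 to 31.6 and at 11.6 and 14.8, and Vcam1 at 7.27 to 11.02 and at 5.62 and 7.19. The sum of 4 of 6 fibroblast markers, without Thy1 and Lum, was 1425 and 1706 FPKM with GAP-2, 1020 and 1204 with GAP-2/3, and 1599 and 1613 with GAP-scr. It is mostly Col1a1 and Col1a2, whereas Dcn was at 72.7 and 71.3 FPKM with GAP-2, 123 and 128 with GAP-2/3, and 52.6 and 37.2 with GAP-scr, and Pdgfra at 2.28 to 4.32 in the gapmer libraries and 1.51 and 1.69 in GAP-scr. The sum of 3 of 4 smooth muscle markers, without Myh11, was 1362 to 1592 in the gapmer libraries and 2089 and 2341 in GAP-scr. Nearly all of it was Acta2, at 2028 and 2258 FPKM in GAP-scr. Tagln was at 35.6 to 64.8 FPKM in the gapmer libraries and 58.9 and 81.0 in GAP-scr, and Cnn1 at 1.23 to 1.63 and at 2.87 and 1.76. Of 6 cardiac markers only Tnni3 had a row, at 0.916 to 2.67 FPKM in the gapmer libraries and 1.11 and 1.26 in GAP-scr; of 5 macrophage markers only Cd68 had one, at 0.834 to 3.54 and at 0.374 and 0.917 FPKM, and of 3 endothelial markers none did. In these bulk samples fewer myotubes and less RNA per myotube cannot be told apart, and the part of the lower sum of myotube markers in the results below was not tested.

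Ttn, Neb and Nebl lie on chromosome 2, Myom1 on 17, Myom3 on 4, Nrap on 19 and Xirp1 on 9. On GRCm38.p6 Ttn spans chr2:76703980-76982557, Neb chr2:52136640-52338798 and Nebl chr2:17342673-17734949, a span of 392 kb. RefSeq windows from 250 bases before to 50 bases after a transcript start were available for 5 of the 7 genes (Ttn, Nrap, Myom1, Myom3 and Nebl, for which 4 starts are listed). Those of the lower genes and the outermost pair of Nebl are shown, since they are listed transcript starts of genes that moved together and of the one that moved against them. The windows of Myom1, Myom3 and Nebl lie inside the gene spans used here and not at their outer ends. Capitals mark E-boxes (CANNTG, the element bound by myogenic bHLH factors), sites for the muscle factor MEF2 and SRF CArG boxes, each searched on both strands.
Ttn, chr2:76982498-76982797, minus strand: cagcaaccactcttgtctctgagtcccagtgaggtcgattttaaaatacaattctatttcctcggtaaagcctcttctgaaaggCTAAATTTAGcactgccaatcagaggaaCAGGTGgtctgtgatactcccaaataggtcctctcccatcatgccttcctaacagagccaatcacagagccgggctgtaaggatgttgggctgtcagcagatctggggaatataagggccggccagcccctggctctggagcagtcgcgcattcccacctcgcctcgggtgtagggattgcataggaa
Nrap, chr19:56389989-56390288, minus strand: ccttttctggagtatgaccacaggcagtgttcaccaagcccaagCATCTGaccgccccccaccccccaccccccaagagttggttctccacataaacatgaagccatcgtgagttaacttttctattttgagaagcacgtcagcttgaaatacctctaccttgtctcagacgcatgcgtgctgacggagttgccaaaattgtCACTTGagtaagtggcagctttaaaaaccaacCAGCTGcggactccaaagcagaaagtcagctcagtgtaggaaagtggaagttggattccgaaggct
Myom1, chr17:71019307-71019606, plus strand: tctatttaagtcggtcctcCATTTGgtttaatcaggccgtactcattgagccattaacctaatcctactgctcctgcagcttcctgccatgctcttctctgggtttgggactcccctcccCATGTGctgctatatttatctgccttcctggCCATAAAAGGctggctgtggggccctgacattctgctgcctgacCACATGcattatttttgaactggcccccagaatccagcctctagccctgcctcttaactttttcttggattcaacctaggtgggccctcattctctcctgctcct
Myom3, chr4:135759465-135759764, plus strand: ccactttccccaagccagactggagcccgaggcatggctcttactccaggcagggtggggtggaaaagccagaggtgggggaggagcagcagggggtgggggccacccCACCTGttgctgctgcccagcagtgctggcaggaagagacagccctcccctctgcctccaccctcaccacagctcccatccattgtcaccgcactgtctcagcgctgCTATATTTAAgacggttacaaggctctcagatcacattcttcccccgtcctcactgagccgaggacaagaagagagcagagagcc
Nebl, first start, chr2:17731085-17731384, minus strand: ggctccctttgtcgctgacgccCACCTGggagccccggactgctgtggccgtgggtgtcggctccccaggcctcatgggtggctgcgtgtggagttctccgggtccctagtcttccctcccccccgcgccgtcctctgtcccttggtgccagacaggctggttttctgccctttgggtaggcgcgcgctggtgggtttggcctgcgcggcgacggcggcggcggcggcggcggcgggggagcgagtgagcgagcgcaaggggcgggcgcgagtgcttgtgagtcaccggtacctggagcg
Nebl, last start, chr2:17462807-17463106, minus strand: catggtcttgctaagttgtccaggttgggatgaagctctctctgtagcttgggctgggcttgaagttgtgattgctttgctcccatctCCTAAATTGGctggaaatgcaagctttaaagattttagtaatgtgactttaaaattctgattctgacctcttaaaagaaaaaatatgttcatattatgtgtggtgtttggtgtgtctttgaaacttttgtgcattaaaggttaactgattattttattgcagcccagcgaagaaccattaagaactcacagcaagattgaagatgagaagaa

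A MEF2 site was found in the windows of Ttn and Myom3, with its first base at -166 and -35 from the start, and in 3.19% of the 32851 RefSeq windows. A CArG box was found in those of Myom1, at -99, and of the last Nebl start, at -162, and in 1.63% of all windows. The last listed Nebl start directly follows the letters ttttattgcag. Whether it and the other listed starts within Nebl are true starts or inner exon edges was not resolved. Nrap and Myom1 had 3 E-boxes each and Ttn and Myom3 had 1, an element held by 72.3% of windows. The only CAGCTG, the form preferred by MyoD, was in the Nrap window, and 16.3% of all windows hold it. The first Nebl window had 32 CpG dinucleotides, more than 90.5% of all windows, whereas its other starts had 5, 1 and 1, Ttn and Nrap 8, Myom3 6 and Myom1 2, around a median of 7. The longest stretch that any 2 of these genes shared on the printed strand was GCTGCTATATTTA, in Myom1 at -125 and Myom3 at -39, and no other window of either strand holds it. In Myom3 this stretch overlaps the MEF2 site given above, so they are not separate features. The stretch was picked as the longest among 22 pairs of windows. A match describes the letters and shows no binding.

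Set out by level per transcript length, the order of the group means was the same in every treatment: Neb, Myom3, Myom1, Ttn, Xirp1, Nrap and Nebl. In GAP-scr the means ran from 51.4 ± 15.9 FPKM for Neb and 35.6 ± 6.72 for Myom3 down to 10.2 ± 0.632 for Nrap and 1.12 ± 0.353 for Nebl (SD, n = 2). The libraries of Neb and Myom3 overlapped there, as did those of Myom1 and Ttn and of Ttn and Xirp1, so these neighbours were not set apart. With GAP-2, Neb and Myom3 overlapped, and with GAP-2/3 so did Neb and Myom3, Myom3 and Myom1, and Ttn and Xirp1. Neb lay above 69.4% of the genes tested with GAP-2, 66.9% with GAP-2/3 and 85.1% with GAP-scr. Nebl lay above 16.1% with GAP-2, 18.8% with GAP-2/3 and 2.8% in GAP-scr.

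**Figure D1:**
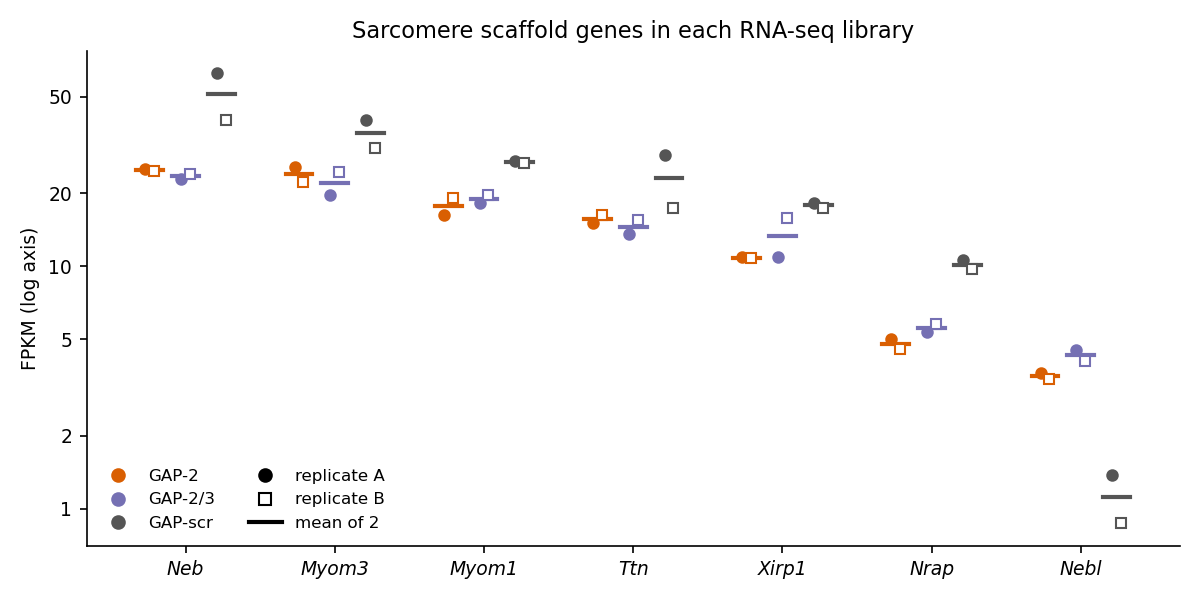
FPKM of the 7 genes (log axis) in each library, with GAP-2, GAP-2/3 and GAP-scr side by side and a line at the mean of each pair. The 4 gapmer libraries lie below both GAP-scr libraries for 6 genes and above them for Nebl, and the GAP-scr pair is spread widest for Ttn (28.7 and 17.4 FPKM), Neb and Nebl.

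The main comparison asked what changed when both gapmer arms were set against GAP-scr. All 7 genes passed the filter of 1 FPKM on average. Of these 6 fell (Ttn, Neb, Myom1, Myom3, Nrap and Xirp1) and 1 rose, Nebl, at an adjusted p under 0.05 (limma, adjusted over 10993 genes). Among all genes tested 9.57% were lower and 24.5% higher by this rule. The median log2 change of the 7 was -0.54, beside 0.10 over all genes. Under quantile normalization the median over all genes was 0.00087, and each of the 7 kept its direction and its call, with Neb at -1.10, Nrap at -0.96 and Nebl at 1.06. After scaling every library to one median, calls over all genes were 1633 higher and 1553 lower, against 2698 and 1052 as deposited, and the 7 again kept theirs. In 6 genes all 4 gapmer libraries lay below both GAP-scr libraries and in Nebl all 4 lay above them, as did 14% and 31.9% of all genes.

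Nebulin and Nrap had the largest falls of the group over both arms. Neb stood at 25.2 and 24.9 FPKM with GAP-2, at 23.0 and 24.1 with GAP-2/3, and at 62.6 and 40.2 with GAP-scr. The gapmer libraries were close to each other and well below both controls, of which replicate A was the higher. The GAP-2 mean was 48.7% and the GAP-2/3 mean 45.8% of the GAP-scr mean. Changes are differences of log2(FPKM + 1), which come out too small for genes of low level, and Neb changed by -1.02 ± 0.14 (SE) over both arms (adjusted p = 0.000574, limma), and 13 of the genes tested had a lower value.

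Nrap is the nebulin relative of young myofibrils. It had 5.02 and 4.56 FPKM with GAP-2, 5.35 and 5.78 with GAP-2/3, and 10.6 and 9.72 with GAP-scr. The pairs were tight and the gapmer and control libraries did not overlap. Its log2 change was -0.86 ± 0.10 (adjusted p = 0.000201, limma), with 32 genes lower. The order of Neb and Nrap depended on the setting: the GAP-2 mean of Nrap was 47.1% of GAP-scr, below the 48.7% of Neb, and without GAP-scr replicate A the change over both arms was -0.80 for Nrap and -0.70 for Neb.

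Nebulette went against them. Nebl was at 3.62 and 3.43 FPKM with GAP-2, at 4.51 and 4.08 with GAP-2/3, and at 1.37 and 0.870 with GAP-scr. Every gapmer library was above both controls, although all 6 values were low. The GAP-2 mean was 3.15-fold and the GAP-2/3 mean 3.83-fold the GAP-scr mean. The log2 change over both arms was 1.22 ± 0.12 (adjusted p = 4.42e-05, limma), and 81 genes had a higher one. With a pseudocount of 0.1 in place of 1 it was 1.74. The values are per gene, so nebulette and LIM-nebulette cannot be told apart.

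The ratio of nebulin to nebulette put the opposite moves in one number. Neb FPKM over Nebl FPKM was 6.97 and 7.25 with GAP-2, 5.11 and 5.92 with GAP-2/3, and 45.7 and 46.2 with GAP-scr. The GAP-scr pair, which differed by 1.56-fold in Neb and 1.57-fold in Nebl, was close in the ratio. On the log2(FPKM + 1) scale the ratio averaged 2.37 ± 0.19 over the 4 gapmer libraries and 4.60 ± 0.20 over the 2 GAP-scr libraries (SD), a difference of -2.23. The exact two-sided permutation test over libraries gave p = 0.133, the smallest that 15 assignments allow, so this design cannot pass 0.05. The pair was singled out with earlier results known. Lasp1, the other short relative of nebulin, had 44.4 and 42.2 FPKM with GAP-2, 31.6 and 39.2 with GAP-2/3, and 41.9 and 43.6 with GAP-scr, and its change of -0.13 ± 0.10 did not pass (adjusted p = 0.357, limma).

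**Figure D2:**
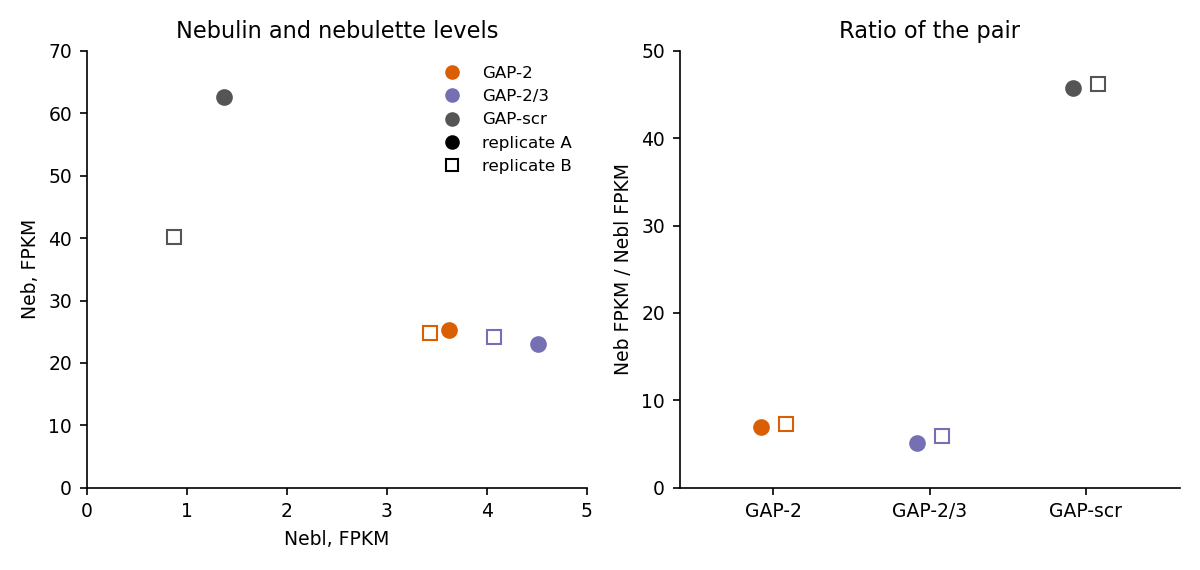
Left, Neb against Nebl in FPKM in each of the 6 libraries (circles replicate A, squares replicate B); right, the ratio of both in each library by group. The ratio is 5.11 to 7.25 in the gapmer libraries and about 46 in both GAP-scr libraries (45.7 and 46.2).

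Titin itself fell in the combined test, but the call rested on single libraries. Ttn was at 15.04 and 16.27 FPKM with GAP-2, 13.62 and 15.54 with GAP-2/3, and 28.7 and 17.4 with GAP-scr. The gapmer libraries lay below both controls, yet GAP-scr replicate B was only slightly above them. The change was -0.54 ± 0.16 (adjusted p = 0.0225, limma). Without GAP-scr replicate A it was -0.20 (adjusted p = 0.219, limma), without GAP-2/3 replicate A -0.50 (0.110), without GAP-2/3 replicate B -0.59 (0.0618), and without both libraries highest in Rn45s -0.17 (0.452). The GAP-scr replicates differed by 1.65-fold in Ttn, A over B, and 164 of the genes tested had a larger ratio. The same ratio was 1.31 for Myom3, but 1.02 for Myom1, 1.09 for Nrap, 1.05 for Xirp1 and 1.02 for the median gene. Per unit of titin, Neb was at 1.68 and 1.53 with GAP-2, 1.69 and 1.55 with GAP-2/3, and 2.18 and 2.31 with GAP-scr, so the control pair agreed in this ratio and both gapmer arms lay below it. The corresponding ratios of Myom1, Myom3, Nrap and Xirp1 to Ttn overlapped between gapmer and GAP-scr libraries.

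The myomesins fell together. Myom1 was at 16.3 and 19.1 FPKM with GAP-2, 18.2 and 19.7 with GAP-2/3, and 27.1 and 26.6 with GAP-scr, and changed by -0.53 ± 0.10 (adjusted p = 0.00295, limma). Myom3 had 25.7 and 22.3 FPKM with GAP-2, 19.7 and 24.5 with GAP-2/3, and 40.4 and 30.9 with GAP-scr, a change of -0.60 ± 0.13 (adjusted p = 0.00554, limma). Neither gene had a gapmer library that reached a control. Myom2, the third gene of the family and the most abundant of the 3 per length, was at 64.5 and 76.7 FPKM with GAP-2, 66.2 and 69.4 with GAP-2/3, and 104 and 108 with GAP-scr, and changed by -0.61 ± 0.10 (adjusted p = 0.00124, limma). The ratio of Myom2 to Myom1 was 3.95 and 4.01 with GAP-2, 3.63 and 3.52 with GAP-2/3, and 3.83 and 4.05 with GAP-scr. With GAP-2 the ratio lay within the range of the controls and with GAP-2/3 below both of them.

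Xin fell less evenly. Xirp1 had 10.9 FPKM in both GAP-2 libraries, 10.9 and 15.8 with GAP-2/3, and 18.3 and 17.5 with GAP-scr. GAP-2/3 replicate B lay nearer to the controls than to the other gapmer libraries, though below both. The change over both arms was -0.54 ± 0.13 (adjusted p = 0.00893, limma).

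Each arm was then set against GAP-scr alone. Both share the same 2 control libraries. With GAP-2, 5 of the 7 genes were lower and 1 higher, where 4.18% and 10.4% of all genes were. Ttn did not pass (-0.49 ± 0.18, adjusted p = 0.0920, limma), and the others ran from -0.98 ± 0.17 for Neb and -0.95 ± 0.12 for Nrap to -0.54 ± 0.15 for Myom3, with Nebl at 1.10 ± 0.14. The count of 5 became 2 without GAP-2 replicate A, when Myom1, Myom3 and Xirp1 no longer passed, and 3 without GAP-2 replicate B, when Myom3 and Xirp1 did not. Without both libraries highest in Rn45s it was 3 (Neb, Nrap and Xirp1), and Myom3 also lost its call without GAP-scr replicate A and without either GAP-2/3 replicate. With only the groups compared Myom3 did not pass (adjusted p = 0.0642, limma). Ttn was at -0.84 without GAP-scr replicate B and then passed (adjusted p = 0.00188, limma), but at -0.15 without GAP-scr replicate A (0.437) and at -0.094 without both libraries highest in Rn45s (0.795).

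With GAP-2/3, 6 genes were lower and 1 higher, beside 11.3% and 28% of all genes. The values were -1.06 ± 0.17 for Neb, -0.77 ± 0.12 for Nrap, -0.66 ± 0.15 for Myom3, -0.59 ± 0.18 for Ttn, -0.48 ± 0.12 for Myom1 and -0.42 ± 0.15 for Xirp1, with Nebl at 1.33 ± 0.14. Xirp1 was closest to the threshold (adjusted p = 0.0449, limma) and changed by -0.17 without GAP-2/3 replicate A (adjusted p = 0.369). Without that library 2 genes remained lower, Neb and Nrap, without GAP-scr replicate A neither Ttn nor Xirp1 passed, without GAP-2/3 replicate B Ttn did not, and without GAP-scr replicate B or either GAP-2 replicate Xirp1 did not. With only the groups compared Xirp1 did not pass (adjusted p = 0.0531, limma), and without both libraries highest in Rn45s neither Xirp1 (0.0650) nor Ttn (-0.24, 0.257) did.

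**Figure D3:**
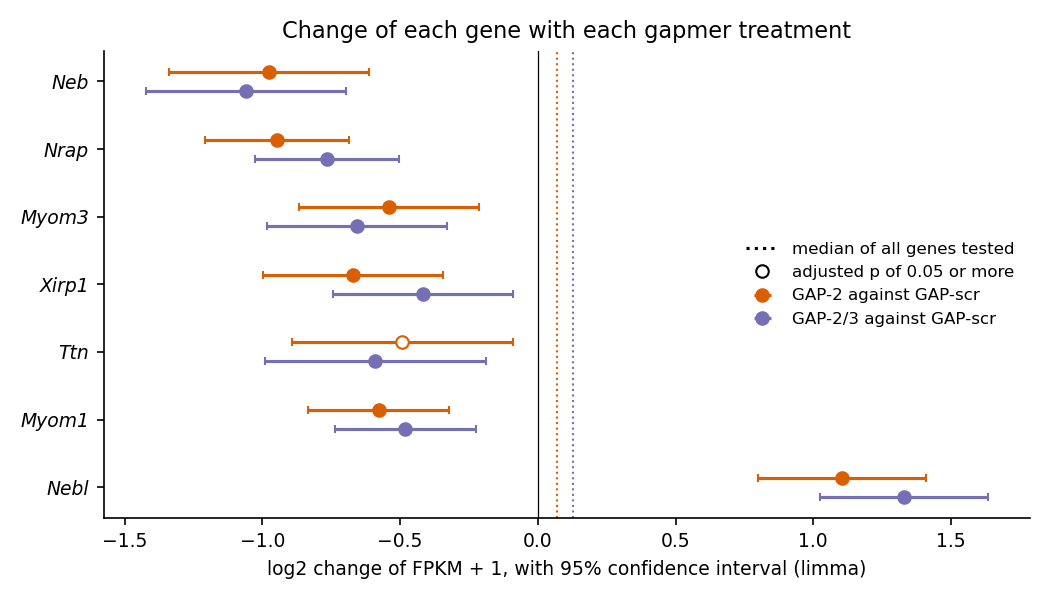
Log2 change of FPKM + 1 of each gene with GAP-2 and with GAP-2/3, each against GAP-scr, with 95% confidence intervals from limma. Neb and Nrap lie furthest to the left in both arms, Nebl stands alone on the right, and the open point is Ttn with GAP-2, which did not pass; dotted lines are the medians of all genes.

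Between the arms none of the 7 genes passed (limma), whether at an adjusted p or at an unadjusted p under 0.05, while 3.65% of all genes were lower and 6.5% higher in GAP-2/3 than in GAP-2. The intervals leave room for moderate differences. The 95% interval of GAP-2/3 against GAP-2 ran from -0.08 to 0.53 for Nebl, from -0.07 to 0.58 for Xirp1, from -0.08 to 0.44 for Nrap, from -0.45 to 0.28 for Neb and from -0.50 to 0.30 for Ttn. The Xirp1 difference of 0.25 became 0.50 with GAP-2/3 replicate A left out and 0.0086 with its replicate B left out.

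The partners of these scaffolds were described by 4 lists. Of 14 tested genes that bind titin or its spring and kinase regions 7 were lower and 1 higher over both arms, with a median log2 change of -0.31. For this and the next 3 lists, the share over all genes was 9.57% lower and 24.5% higher, with a median of 0.10. Actn2, the α-actinin that ties titin and actin at the Z-disc, had 9.10 ± 0.829 FPKM with GAP-2, 5.27 ± 0.237 with GAP-2/3 and 17.8 ± 3.17 with GAP-scr (SD, n = 2 each), a change of -1.23 ± 0.12. It also differed between the arms (-0.69, adjusted p = 0.0102, limma). Ankrd2, a stretch-responsive titin ligand, changed by -1.19 ± 0.19, and the muscle ring finger genes Trim54 and Trim63 by -0.72 ± 0.10 and -0.63 ± 0.12. Fhl1, a LIM protein at the titin spring, was the one that rose (0.57 ± 0.12). Its change was 0.10 ± 0.13 with GAP-2, which did not pass, and 1.04 ± 0.13 with GAP-2/3, and the arms differed by 0.94 (adjusted p = 0.00129, limma). Tcap, which caps titin at the Z-disc, had 7.77 and 7.43 FPKM with GAP-2, 7.12 and 4.87 with GAP-2/3, and 5.82 and 6.32 with GAP-scr, and did not pass.

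Of 7 M-band genes 3 were lower and 1 higher, beside 9.57% and 24.5% of all genes, with a median of -0.14 beside 0.10. The lower ones were Ckm, the creatine kinase that docks there (-0.77 ± 0.10), Obsl1 (-0.66 ± 0.09) and Myom2 (-0.61 ± 0.10), and the higher one Sqstm1, an autophagy receptor linked to the titin kinase (0.61 ± 0.09). Smyd1, a methyltransferase needed for myosin assembly, had 30.9 ± 1.53 FPKM with GAP-2, 33.5 ± 0.456 with GAP-2/3 and 34.1 ± 1.80 with GAP-scr and did not pass. Among 22 genes of the thin filament and of nebulin's partners 14 were lower and none higher, beside the same 9.57% and 24.5%, with a median of -0.43. The count of 14 was 8 without GAP-2/3 replicate A, and also 8 without GAP-2/3 replicate B. The lowest p-values belonged to the actins Acta1, with 2904 FPKM for GAP-2, 3071 for GAP-2/3 and 5979 for GAP-scr on average, and Actc1 (-0.88 ± 0.10), to Cap2, an actin-recycling protein (-0.75 ± 0.10), and to Tpm2, a tropomyosin (-0.71 ± 0.10). Klhl41 and Lmod3, which are linked to nebulin stability and thin-filament length, did not pass over both arms, at -0.15 ± 0.11 and -0.13 ± 0.10. Their relatives in this list were lower over both arms. Klhl40 changed by -0.55 ± 0.15 (adjusted p = 0.0151, limma) and Lmod2 by -0.52 ± 0.14 (adjusted p = 0.0165, limma). Klhl40 passed with GAP-2 but not with GAP-2/3 (-0.42 ± 0.17, adjusted p = 0.0666, limma). Lmod2 passed with GAP-2/3 but not with GAP-2 (-0.46 ± 0.16, adjusted p = 0.0785, limma). In GAP-scr replicates A and B, Klhl40 was at 20.9 and 32.8 FPKM and Lmod2 at 67.5 and 44.9. Lmod3 was lower with GAP-2 alone (-0.39 ± 0.11, adjusted p = 0.0361) and differed between the arms by 0.52 (adjusted p = 0.0126, limma). Of 15 partners of Xin and Nrap at attachment sites 8 were lower, beside 9.57% of all genes, and 3 higher, a share no larger than the 24.5% of all genes. The median was -0.39, and under quantile normalization or scaling to one median the higher ones numbered 2. Filamin C, Flnc, changed by -0.84 ± 0.11, talin 2, Tln2, by -0.74 ± 0.11 and Ldb3, a Z-disc PDZ protein, by -0.67 ± 0.10. Gja1, the gap junction protein connexin 43, rose to 63.1 ± 0.344 FPKM with GAP-2 and 113 ± 0.744 with GAP-2/3, against 24.2 ± 1.41 with GAP-scr, a log2 change of 1.77 ± 0.09.

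**Figure D4:**
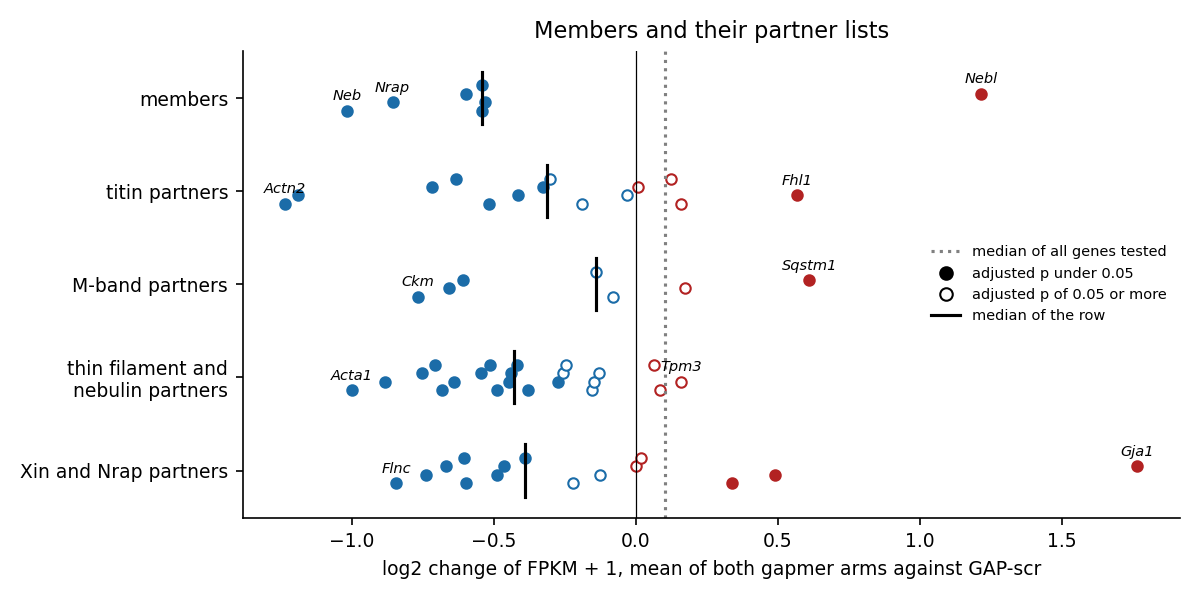
Log2 change of FPKM + 1 over both gapmer arms against GAP-scr for the 7 scaffold genes and for each tested gene of 4 partner lists (blue lower, red higher, filled where the adjusted p was under 0.05). Most points lie left of the dotted median of all genes (0.10), and Nebl and Gja1 lie furthest to the right.

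The genes most like Neb and Nebl were found by the root mean square distance between log2(FPKM + 1) profiles centred over the 6 libraries, among genes averaging 5 FPKM or more. This is a description in which all genes share the same libraries. For Neb they were Igfn1 (0.10), a muscle gene of immunoglobulin and fibronectin domains, Heyl (0.14), a Notch target, Actc1 (0.16), Atp2a1 (0.16), the fast-fibre calcium pump, and Mamstr (0.16), a coactivator of MEF2. Igfn1 was at 9.64 and 11.1 FPKM with GAP-2, 9.13 and 10.5 with GAP-2/3, and 23.4 and 17.2 with GAP-scr, with the higher control in replicate A as for Neb. For Nebl they were Vcan (0.04), the matrix proteoglycan versican, Car13 (0.08), a carbonic anhydrase, Nupr1 (0.12), a stress-response regulator, Myf5 (0.12), a factor of undifferentiated myoblasts, and Lrch2 (0.12). Vcan had 91.5 and 90.7 FPKM with GAP-2, 104 and 101 with GAP-2/3, and 47.5 and 35.8 with GAP-scr. The match holds on the log2(FPKM + 1) scale, where the offset shrinks the change of Nebl more than that of Vcan, whose means were 91.1, 102 and 41.7 FPKM for GAP-2, GAP-2/3 and GAP-scr. Myf5, among the myoblast markers above, had 23.5 and 25.0 FPKM with GAP-2, 31.64 and 27.98 with GAP-2/3, and 14.8 and 11.6 with GAP-scr, and the part of such cells in the rise of Nebl was not tested.

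The last question was whether Charme-bound DNA lay at these genes. Of the 798 merged ChIRP peaks 1 fell within a scaffold gene, Ttn, at chr2:76868147-76868303, with its middle 114 kb downstream of the start of the gene. Its score, the authors' own, was 5107, at rank 66 of the list and tied among 14 peaks. Whether it is exonic or intronic was not resolved, since only gene spans were used. Of the 10947 tested genes placed on GRCm38.p6, 1.74% overlap a peak, as do 60 of the 441 genes spanning at least 200 kb (13.6%), of which Ttn, at 279 kb, is one. The nearest peaks to the other 6 genes were 251 kb away for Myom3, 300 kb for Xirp1, 872 kb for Neb, 1032 kb for Myom1, 1523 kb for Nebl and 2504 kb for Nrap. The submitters' notes name mm9, but the last peak on chromosome X ends at 170732078, beyond that chromosome's end in mm9, so positions were read as GRCm38; in mm9 the Ttn call would not stand as given. The peak list combines libraries, so no comparison with LacZ was made.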

How the data were processed

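Polyadenylated RNA of 6 libraries was sequenced after a TruSeq stranded preparation, per the labels' protocols. Among the tools in the submitters' processing notes are TopHat2, Cufflinks, Cuffdiff and MACS, with mm9 as build, and no roles or versions. The authors deposited FPKM for 11228 genes; the lowest maximum of a gene is 1.03 FPKM, and no source used here gives the filter behind it. Whole reads were not recovered, so depth is unknown and no count model was used. The peak score is as deposited by the authors, in a list without a header.

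Genes averaging 1 FPKM or more (10993) were tested as log2(FPKM + 1). One limma fit (version 3.58.1, R 4.3.3) with a trend of variance on intensity covered all 3 groups, without covariates, and the Benjamini-Hochberg adjustment ran over all genes tested, with a threshold of 0.05. The series text speaks of biological replicates without naming separate cultures, so p-values cover spread among these libraries only, which may be technical. The permutation test used scipy 1.17.1 (Python 3.11.15). The limma fit was checked on simulated data with the same spread for every gene. Over both arms it called 99% of the added log2 changes of 0.5, with 5 false calls. For GAP-2 alone it called 91% of them, with 8 false calls, and for GAP-2/3 alone 88%, with 12. The simulated libraries held no library-wide difference such as that in Rn45s, so this check does not bear on calls that rest on single libraries. Positions and windows are from RefSeq, GRCm38.p6, where 10947 tested genes were found (10264 under their symbol, 683 under a former one).

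The members, the partner lists and the alternatives were chosen with earlier results of these data known. Named genes were the members, up to 4 per list with the smallest p over both arms, and the 5 genes most like Neb and Nebl. Fhl1, Tcap, Smyd1, Klhl40, Klhl41, Lmod2, Lmod3 and Lasp1 are named outside this rule, after their values were seen. One gene of the M-band list is not reported here and was left out of its counts.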

Additional observations from a re-analysis of the deposited data

How the results depend on the processing

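Neb, Nrap and, where it passed the filter, Nebl kept their direction against GAP-scr, over both arms and in each arm, under every alternative run. They also kept their call under every alternative with 2 libraries a group. Leaving out a library left 1 in its group, so calls in such fits lean on the spread of other groups and genes. Without both libraries highest in Rn45s, GAP-2 and GAP-scr each had 1 library. Over the 7 genes and 4 comparisons, 376 alternative values kept direction and side of the threshold, 28 lost the call, 2 gained it and 3 changed sign. With genes averaging at least 5 FPKM, Nebl was left out and 0 genes of the group were higher in any of the 3 comparisons with GAP-scr. Leaving out 1 library, the lower genes numbered 2 to 6 for GAP-2 and 2 to 5 for GAP-2/3, and 3 for GAP-2 without both libraries highest in Rn45s. The cause was not tested. The sign changes were in GAP-2/3 against GAP-2, Myom1 at -0.011 without GAP-2 replicate A or without both Rn45s-high libraries, and Myom3 at 0.034 without GAP-2/3 replicate A. With 1 library left out Myom1 ran from -0.011 to 0.21 there and Myom3 from -0.27 to 0.034.

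Calls over all genes with 1 library left out ran from 2080 to 3948 for both arms, from 504 to 2624 for GAP-2, from 1538 to 4481 for GAP-2/3 and from 195 to 2052 between the arms. With only the groups compared they were 937 for GAP-2 and 2055 between the arms, and at a threshold of 0.1 they were 2567 and 1781. The fit of only the groups compared was not run for both arms, which use every library. Scaled to one median, lower and higher calls were 651 and 708 for GAP-2, 1790 and 1954 for GAP-2/3 and 424 and 494 between the arms; under quantile normalization they were 687 and 692, 1960 and 1820, and 503 and 493. The Neb to Nebl difference on the log2 scale ran from -2.78 with a pseudocount of 0.1 to -2.09 without GAP-scr replicate A.

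Deviations of same-lettered libraries correlated across genes at 0.36 for GAP-2 and GAP-scr, -0.13 for GAP-2/3 and GAP-scr and -0.18 for GAP-2/3 and GAP-2. The replicate letters thus did not pair the libraries alike in all groups. Replicate A of GAP-2 and of GAP-scr were also the libraries highest in Rn45s. Whether the letters pair GAP-2 with GAP-scr was not settled. With the replicate block 3944, 1955, 4466 and 1469 genes were called for both arms, GAP-2, GAP-2/3 and between the arms, and Ttn passed with GAP-2 (-0.49, adjusted p = 0.0260, limma), for 6 lower genes. With 2 libraries a group and unknown depth, counting error behind low values such as Nebl could not be given.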
